A study of Mus musculus with 4 samples.

Results

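Hox genes were examined in 4 mouse tumours profiled by polyA RNA sequencing. The members were the genes of the deposited count table whose mouse symbol is Hox followed by a cluster letter (a to d) and a number. This gave 39 genes of 46946 in the table, 11 in the HoxA cluster on chromosome 6, 10 in HoxB on chromosome 11, 9 in HoxC on chromosome 15 and 9 in HoxD on chromosome 2. The rule used names only and no measured value, though it was set with earlier results of these data known.

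All 4 tumours belong to 1 group, PDGFB K27M, labelled untreated. Per the sample labels, the cells of origin were mouse neural stem cells carrying PDGF, of the genotype K27M, in which lysine 27 of histone H3 is replaced by methionine. The design text of the series speaks instead of injected DIPG cells (diffuse intrinsic pontine glioma, a childhood brainstem tumour) with mutant histone H3.3, and the labels do not settle which holds. No normal brain, cultured cells or second genotype is among the samples, the labels give neither the host's age nor the site of injection, and nothing says whether the tumours share 1 cell line. The libraries bear the names used in the count table, which does not tie them to the titles T1 to T4. Wherever 4 values of a gene or list follow each other, they stand in the order T14, T10, T8, TUN. Library totals ran from 21664889 to 24369339 counts. Levels are given as CPM, read counts scaled to a common library size with TMM, or as RPKM, which divides CPM by the exon length of the gene and is used wherever genes are compared with each other. At these totals 1 count is worth 0.0407 to 0.0447 CPM, and a count of 0 allows up to 0.122 to 0.134 CPM (3 counts; counting error only).

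Hox genes encode homeodomain transcription factors that give cells their position along the body from hindbrain to tail. Each cluster is laid out in the order of use: low-numbered genes, at the 3′ end, act in the hindbrain, and high-numbered genes, at the 5′ end, act towards the tail. Genes with the same number in different clusters are paralogs and form a paralog group. Forebrain and midbrain normally express no Hox genes. Polycomb repression by PRC2, which places the methyl mark on lysine 27 of histone H3, is a main mechanism that keeps Hox clusters silent in cells of the wrong position.

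Promoter windows are shown to set members counted in T10 beside members with no count. The windows come from a table of RefSeq promoters (GRCm38.p6, the same assembly as mm10). For each cluster they give the member with the highest RPKM in T10 among those in that table and, where the table holds it, the first member of paralog groups 9 to 13 (Hoxa9 and Hoxd9, both without a count). A window holds 250 bases before and 50 after the annotated start, 5′ to 3′ on the gene's strand. Capitals mark matches on either strand to 3 motifs that were searched, which are the PBX-HOX site TGATNNAT, CCAAT and TATAAA.
Hoxa5, chr6:52204538-52204837, minus strand: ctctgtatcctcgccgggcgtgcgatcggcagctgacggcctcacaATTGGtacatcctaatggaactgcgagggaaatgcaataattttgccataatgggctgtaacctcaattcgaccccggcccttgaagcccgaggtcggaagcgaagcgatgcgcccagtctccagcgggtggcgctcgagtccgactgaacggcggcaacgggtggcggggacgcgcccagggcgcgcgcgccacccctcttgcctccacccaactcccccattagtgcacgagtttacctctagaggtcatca
Hoxb4, chr11:96318017-96318316, plus strand: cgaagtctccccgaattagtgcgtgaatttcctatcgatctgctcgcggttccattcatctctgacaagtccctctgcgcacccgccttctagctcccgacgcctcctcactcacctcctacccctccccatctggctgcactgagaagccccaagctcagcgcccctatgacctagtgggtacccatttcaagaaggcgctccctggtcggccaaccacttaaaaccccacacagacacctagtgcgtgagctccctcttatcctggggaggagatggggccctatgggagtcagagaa
Hoxc4, chr15:103034145-103034444, plus strand: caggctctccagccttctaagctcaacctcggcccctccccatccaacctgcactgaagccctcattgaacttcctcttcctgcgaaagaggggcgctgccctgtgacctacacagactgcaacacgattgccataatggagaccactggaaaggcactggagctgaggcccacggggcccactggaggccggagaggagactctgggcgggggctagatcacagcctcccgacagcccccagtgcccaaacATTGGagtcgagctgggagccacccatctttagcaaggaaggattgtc
Hoxd3, chr2:74711743-74712042, plus strand: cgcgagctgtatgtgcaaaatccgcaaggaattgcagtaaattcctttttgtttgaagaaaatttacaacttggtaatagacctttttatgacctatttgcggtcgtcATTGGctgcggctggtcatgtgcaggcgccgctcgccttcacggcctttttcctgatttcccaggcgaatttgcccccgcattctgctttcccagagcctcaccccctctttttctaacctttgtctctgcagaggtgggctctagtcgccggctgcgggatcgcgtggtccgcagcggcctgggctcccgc
Hoxa9, chr6:52227321-52227620, minus strand: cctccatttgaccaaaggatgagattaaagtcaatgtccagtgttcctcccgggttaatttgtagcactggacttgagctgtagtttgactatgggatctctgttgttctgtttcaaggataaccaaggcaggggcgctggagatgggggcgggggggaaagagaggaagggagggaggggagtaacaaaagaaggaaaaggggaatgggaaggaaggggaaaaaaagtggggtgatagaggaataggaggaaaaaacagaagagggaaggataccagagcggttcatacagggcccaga
Hoxd9, chr2:74697513-74697812, plus strand: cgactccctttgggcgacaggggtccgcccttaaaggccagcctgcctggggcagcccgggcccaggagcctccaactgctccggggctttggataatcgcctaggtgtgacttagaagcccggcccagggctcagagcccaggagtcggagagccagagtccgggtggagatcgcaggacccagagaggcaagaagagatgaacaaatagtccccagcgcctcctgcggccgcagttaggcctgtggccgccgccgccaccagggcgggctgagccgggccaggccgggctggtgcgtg

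Of the 39 members, 22 have a window in the table used, 24 windows in all. CpG dinucleotides, which mark the CpG islands that Polycomb complexes bind, were counted in each. The median was 14.5 CpG in the Hox windows against 7 over all 32851 windows of the same length, and 20 of the 24 Hox windows lay above the latter. Among the printed windows, Hoxa5 held 29, Hoxb4 14, Hoxc4 9, Hoxd3 20, Hoxa9 4 and Hoxd9 20. The median was 13 in the 11 windows of genes with more than 3 counts in T10 and 20 in the other 13, the counted members having the lower median. The PBX-HOX motif was found in 4 of the 24 Hox windows and in 8.85% of all windows, CCAAT in 15 and 37.4%, and TATAAA in 4 and 13.6%. The motifs do not overlap in the printed windows, and a match describes letters only.

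The Hox signal lay almost wholly in 1 tumour. The summed level of the 39 genes was 2.80, 61.7, 2.97 and 2.05 CPM, a mean of 17.4 ± 29.5 CPM (SD, n = 4). T10 stood far above the other 3, which lay within 1 CPM of each other, and it held 88.7% of the sum over the 4 tumours. In counts, T10 had 1515 Hox reads against 63, 71 and 46 in T14, T8 and TUN. In bulk RNA, more cells that express a gene and more RNA per cell cannot be told apart.

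A gene was called detected in a tumour at CPM 1 or more. In T10, 12 of the 39 Hox genes (30.8%) were detected, a share near the 31.0% of all 46946 genes detected there. In T14 the count was 1 (all genes 30.6%), in T8 it was 1 (29.2%) and in TUN it was 0 (29.4%). Relative to the table as a whole, Hox genes were thus detected as often as other genes in T10 and rarely in the other 3 tumours. The deviation of a gene in a tumour was taken as its log2 CPM (with a prior count of 2) minus its mean over the other 3 tumours. The median over the 39 Hox genes was -0.17, 0.96, 0 and -0.51, where the median over all genes was 0 in each. Over the 23 genes of paralog groups 1 to 8 it was -1.15, 2.89, -1.08 and -0.91. For T14, T8 and TUN the mean over the others includes T10, so a high T10 by itself lowers their values. The 23 leave out the 16 genes of groups 9 to 13, 14 of them without a count.

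**Figure D1:**
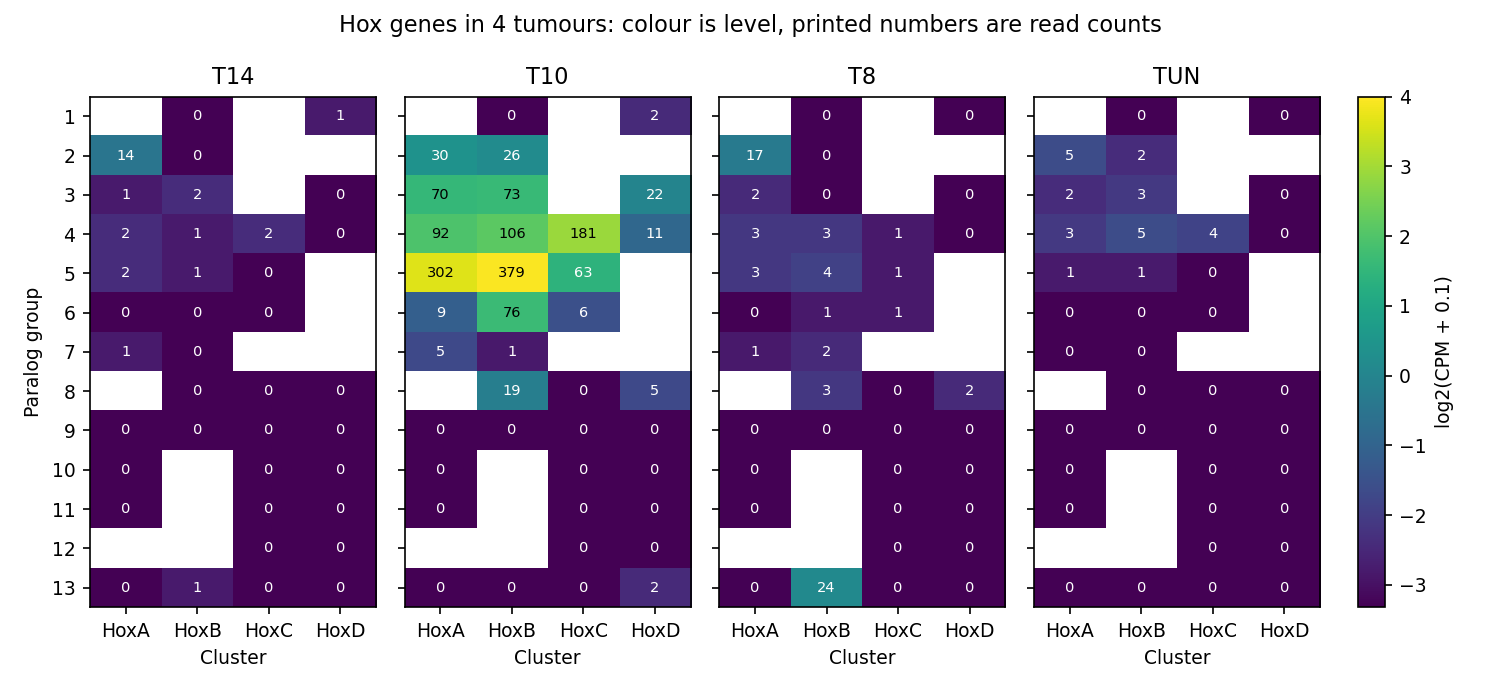
Level of Hox genes by paralog group (rows, 1 at the 3′ end) and cluster (columns) in each of the 4 tumours. Colour gives log2(CPM + 0.1), the printed number is the read count, and white squares hold no gene or one not shown. In T10, Hoxb5 and Hoxa5 have the most counts, while groups 9 to 13 are at 0 to 2 counts there and Hoxb13 stands alone with 24 counts in T8.

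By paralog group, most Hox reads of T10 (1225 of 1515 counts) came from groups 4 to 6. Groups 1 to 3, the hindbrain genes, summed to 2.35, 10.5, 0.922 and 1.43 CPM. Groups 4 to 6, which act around the junction of hindbrain and spinal cord and at neck and forelimb levels, summed to 0.355, 49.9, 0.712 and 0.625 CPM. T10 stood alone in these middle groups, where the other tumours had 8, 17 and 14 counts (T14, T8, TUN). Groups 7 and 8 summed to 0.0444, 1.22, 0.335 and 0 CPM. The 16 genes of groups 9 to 13, which act in trunk, hindlimb and tail, had 1, 2, 24 and 0 counts in all, and 14 of them had no count in any library.

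In group 1, Hoxb1 and Hoxd1 were at or near 0 in all tumours, with Hoxb1, a marker of the fourth rhombomere, at 0 counts in all 4 libraries and Hoxd1 at 1, 2, 0 and 0 counts. Hoxa2, which patterns the anterior hindbrain and the second pharyngeal arch, had 14, 30, 17 and 5 counts (0.621, 1.22, 0.712 and 0.223 CPM). T10 was highest, but within 2-fold of T8 and T14. Hoxb2, its paralog, had 0, 26, 0 and 2 counts, with 1.06 CPM in T10. Hoxa2 was not called as varying more between tumours than genes of like abundance (adjusted p = 0.999997 in the edgeR goodness of fit described below).

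In group 3, Hoxa3 and Hoxb3, which act in the posterior hindbrain and pharyngeal arches, were counted almost only in T10. Hoxa3 had 1, 70, 2 and 2 counts (0.0444, 2.85, 0.0838 and 0.0893 CPM). Hoxb3 had 2, 73, 0 and 3 counts (0.0888, 2.97, 0 and 0.134 CPM). Hoxd3 had 22 counts in T10, 0.896 CPM, and none in the others. All 3 had at most 3 counts in any tumour but T10, where Hoxd3 stayed under CPM 1. Per length, Hoxb3 (0.699 RPKM, 95% Poisson interval 0.548 to 0.879) and Hoxa3 (0.474 RPKM, 0.369 to 0.599) overlapped in T10, and Hoxd3 (0.214 RPKM, 0.134 to 0.324) lay below both.

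Group 4 genes mark the hindbrain next to the spinal cord. Hoxc4 had 2, 181, 1 and 4 counts (0.0888, 7.37, 0.0419 and 0.179 CPM). Hoxb4, also known as a regulator of blood stem cells, had 1, 106, 3 and 5 counts (0.0444, 4.32, 0.126 and 0.223 CPM). Hoxa4 had 2, 92, 3 and 3 counts (0.0888, 3.75, 0.126 and 0.134 CPM). Each was at least 10 times as high in T10 as in any other tumour. Hoxd4 had 11 counts in T10 and 0 in the others. In RPKM the order in T10 was Hoxc4 (2.87), Hoxa4 (2.35), Hoxb4 (1.68) and Hoxd4 (0.152). The counting intervals of the neighbours Hoxc4 (2.47 to 3.32) and Hoxa4 (1.89 to 2.88) overlapped, as did those of Hoxa4 and Hoxb4 (1.38 to 2.03), while Hoxd4 (0.0758 to 0.272) was apart.

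Group 5 held the 2 Hox genes with the highest RPKM. These genes act in the neck region, where Hoxa5 and Hoxc5 are needed for the phrenic motor neurons that drive breathing. Hoxb5 (ENSMUSG00000038700.4, chromosome 11, 96303336 to 96306121 in mm10) had 1, 379, 4 and 1 counts, or 0.0444, 15.4, 0.168 and 0.0447 CPM. Hoxa5 (ENSMUSG00000038253.6, chromosome 6, 52201754 to 52204587) had 2, 302, 3 and 1 counts, or 0.0888, 12.3, 0.126 and 0.0447 CPM. Hoxc5 had 0, 63, 1 and 0 counts, or 0, 2.56, 0.0419 and 0 CPM. The 3 genes summed to 30.3 CPM in T10, and in the other tumours each was at 4 counts or fewer. Per length, Hoxa5 (6.55 RPKM, 5.83 to 7.33) and Hoxb5 (5.54 RPKM, 4.99 to 6.12) had overlapping intervals in T10 and Hoxc5 (0.830 RPKM, 0.638 to 1.06) lay below.

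Beyond group 5 the level dropped in HoxA, HoxB and HoxC. In group 6, Hoxb6 had 0, 76, 1 and 0 counts (3.09 CPM in T10), and its paralogs Hoxa6 and Hoxc6, which act at forelimb level, had 9 and 6 counts in T10 and at most 1 elsewhere. Per length Hoxb6 stood at 1.58 RPKM in T10, Hoxa6 at 0.419 and Hoxc6 at 0.101. In group 7, Hoxa7 had 5 counts in T10 and Hoxb7 had 1, the only member of groups 2 to 7 with more counts in another tumour, 2 in T8. In group 8, Hoxb8 had 19 counts in T10 and 3 in T8, Hoxd8 had 5 and 2, and Hoxc8, which acts at the brachial level of the spinal cord, had none in any library. Per length in T10, Hoxb8 (0.294 RPKM, 0.177 to 0.458) stood above its 3′ neighbour Hoxb7 (0.0264 RPKM, 0.000668 to 0.147), so the level did not fall at every step along HoxB.

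**Figure D2:**
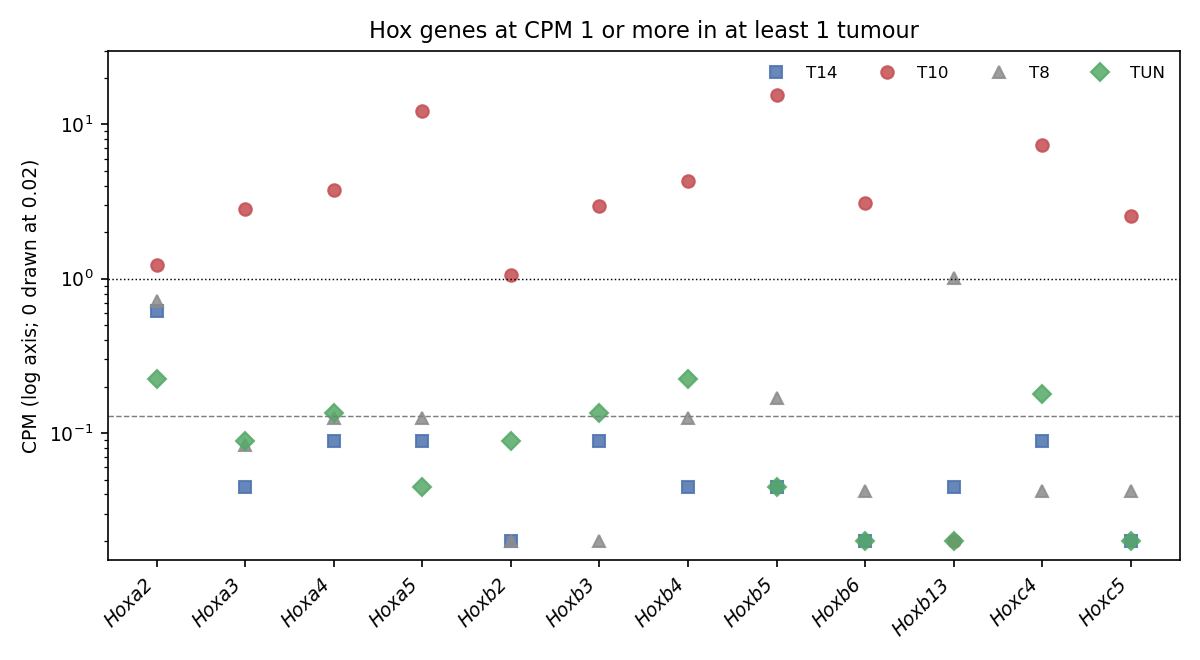
CPM in each tumour (log axis, values of 0 drawn at 0.02) of 12 Hox genes at CPM 1 or more in at least 1 tumour. The dotted line is CPM 1 and the dashed line the mean level that 3 counts give. T10 is above all other tumours for 11 of the 12 genes, and Hoxb13 is highest in T8.

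The posterior end of the clusters was silent with 1 exception. Groups 9 to 12 had 0 counts in all 12 genes and all 4 libraries, so each lay under the floor of 3 counts (0.134 CPM or less). In group 13, Hoxa13 and Hoxc13 had none and Hoxd13 had 2 counts in T10. Hoxb13, a gene of the tail bud and prostate, had 24 counts in T8, 1 in T14 and 0 in T10 and TUN, or 1.01 CPM in T8. Scaled by library totals alone it fell under CPM 1. The nearest HoxB member, Hoxb9, had 0 counts in T8 and Hoxb8 had 3, so no neighbour stood with Hoxb13 in that tumour.

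**Figure D3:**
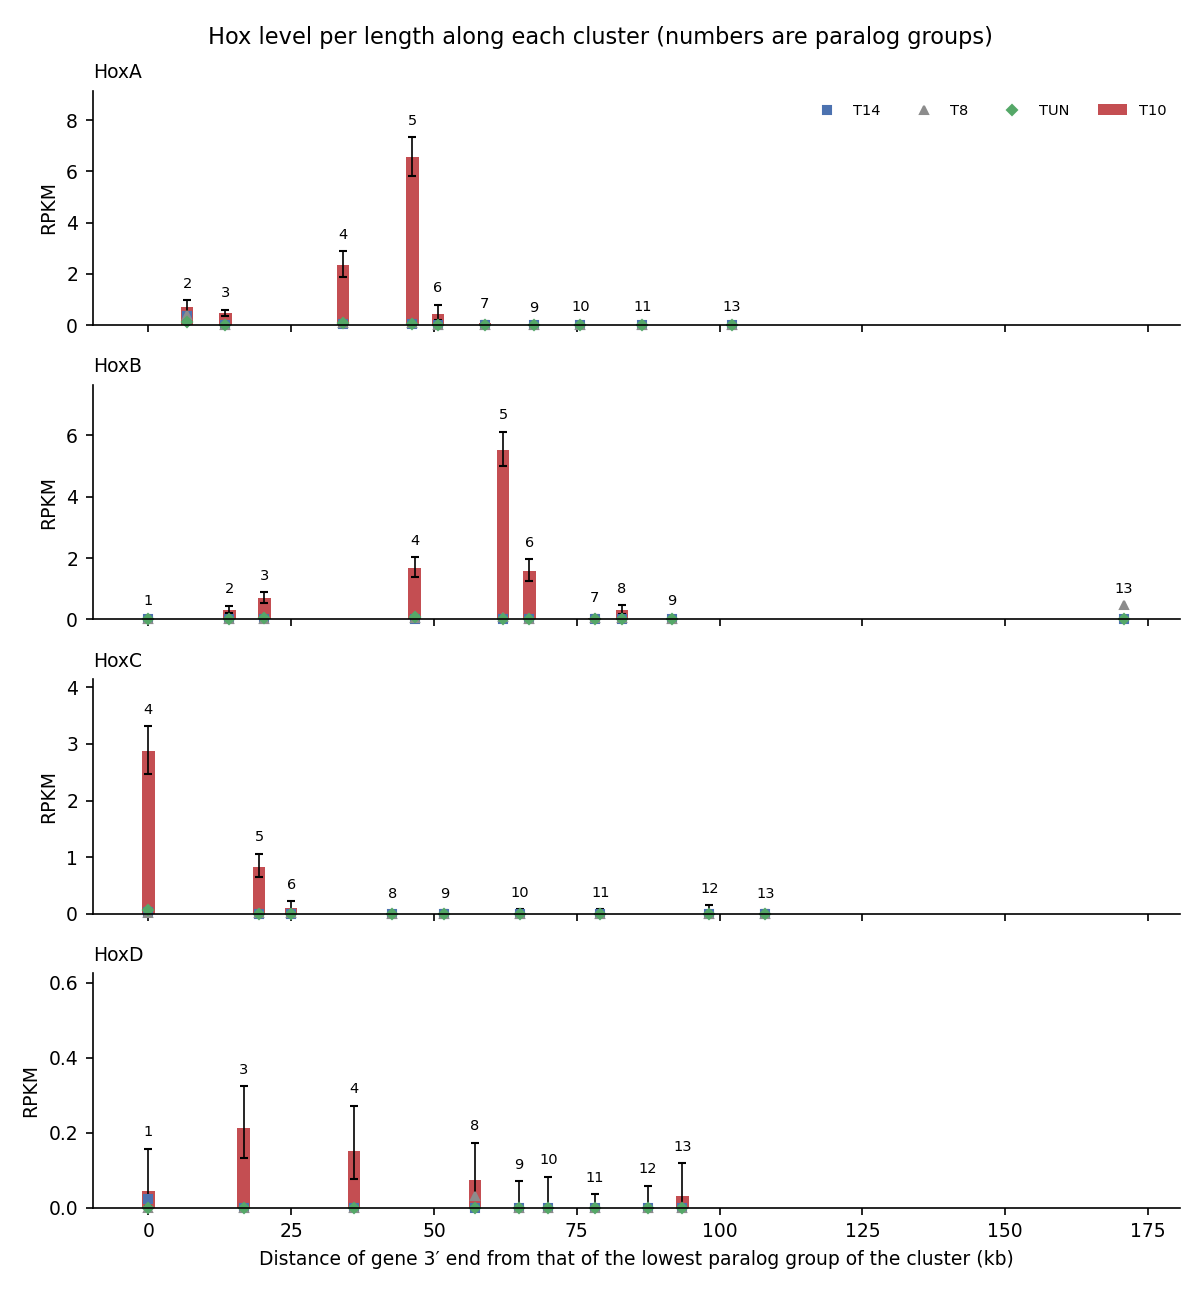
RPKM of Hox genes against the distance of the gene's 3′ end from that of the lowest-numbered member of the cluster. Red bars show T10 with 95% Poisson intervals (counting error only), symbols the other 3 tumours, and numbers the paralog group; vertical scales differ between clusters. The bars peak at group 5 in HoxA and HoxB and at group 4 in HoxC. In HoxD group 3 is highest, but its interval overlaps that of group 4. No bar reaches the detection floor at groups 9 to 12.

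In all 4 clusters T10 held most of the summed level. HoxB summed to 0.222, 27.7, 1.55 and 0.491 CPM. HoxA summed to 2.44, 22.1, 1.22 and 1.38 CPM, HoxC to 0.0888, 10.2, 0.126 and 0.179, and HoxD to 0.0444, 1.71, 0.0838 and 0. T10 was the highest tumour in each cluster, with 81.4% of the 4-tumour sum for HoxA, 92.4% for HoxB, 96.3% for HoxC and 93.0% for HoxD. In HoxA, Hoxa2 was also counted in the other tumours. HoxD had no member at CPM 1 in any tumour.

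Position was measured from the 3′ end of each gene, since several gene models start inside a neighbour. In T10, members with more than 3 counts reached 58.9 kb into HoxA (Hoxa7), 82.9 kb into HoxB (Hoxb8), 25.0 kb into HoxC from Hoxc4 (Hoxc6) and 57.2 kb into HoxD (Hoxd8). The next member beyond was at 0 counts in each cluster: Hoxa9, 8.6 kb further, Hoxb9, 8.7 kb, Hoxc8, 17.8 kb, and Hoxd9, 7.7 kb. At CPM 1, the last detected groups in T10 were 5 in HoxA, 6 in HoxB and 5 in HoxC. The highest RPKM in T10 was at Hoxa5 in HoxA, 46.2 kb from the 3′ end of the cluster, and at Hoxb5 in HoxB, 62.1 kb from Hoxb1. In HoxC it was at Hoxc4, the lowest-numbered member of that cluster. In HoxD it was at Hoxd3, 16.7 kb from Hoxd1, though the counting intervals of Hoxd3 and Hoxd4 overlapped.

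The spread between tumours was tested across the whole table with an edgeR goodness of fit, which asks whether the counts of a gene vary more between the 4 tumours than those of genes of like abundance. Genes with a total of 40 or more counts over the libraries entered. Of 15681 genes, 755 were called at an adjusted p of 0.05 (4.81%). Only 11 of the 39 Hox genes entered, and all but 1 of these only through their counts in T10. Entry thus favoured genes high in T10, and the number called supports nothing by itself. Of the 11, 9 were called: Hoxb5 (adjusted p = 8.95e-09), Hoxa5 (1.95e-07), Hoxb6 (1.63e-05), Hoxc4 (2.58e-05), Hoxc5 (4.74e-05), Hoxb3 (0.000728), Hoxb4 (0.00166), Hoxa3 (0.00289) and Hoxa4 (0.00376), each highest in T10. Hoxa2 also entered only through T10 and was not called. Without T10, 1 Hox gene entered and 0 were called by edgeR. As dispersion outliers in DESeq2, 102 of the same genes and 0 Hox genes were called.

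As a second description, a gene was counted as high in 1 tumour alone where it had CPM 1 or more there and at least 4 times the highest of the other 3. Of 15074 genes at CPM 1 or more in any tumour, 103 (0.683%) met this in T10, 136 (0.902%) in T14, 19 (0.126%) in T8 and 16 (0.106%) in TUN. Of the 13 Hox genes at CPM 1 or more in any tumour, 10 met it in T10, 1 in T8 (Hoxb13) and 0 in T14 and TUN. All 11 reached CPM 1 only in the tumour where they are high, so they were among the 13 through that tumour and their count is a description that supports nothing by itself. The 10 were Hoxa3, Hoxa4, Hoxa5, Hoxb2, Hoxb3, Hoxb4, Hoxb5, Hoxb6, Hoxc4 and Hoxc5. Hoxa2, highest in T10, did not meet it.

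Overlapping genes limit some of these counts. The library kit does not mark strand, and the treatment of reads that fall on several genes is not given in the sources used here. Exons of another gene covered 62.8% of the exon length of Hoxd3, 52.9% of Hoxb3, 52.3% of Hoxd4, 27.3% of Hoxb2 and 27.1% of Hoxa3, so their RPKM may be too low or hold reads of the neighbour. Hoxb5 was covered over 3.59% (by Hoxb5os, at 3 counts in T10) and Hoxa5, Hoxb4, Hoxb6 and Hoxc4 not at all. Summed over the members with no overlapped exon base, which leaves out Hoxb5, the level in T10 was 28.9 CPM. In T14, T8 and TUN it was 0.311, 1.68 and 0.447 CPM. T10 then held 98.0% of the 4-tumour sum of HoxA, 82.9% of HoxB and 74.1% of HoxD.

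Paralogs can also share reads where their homeobox, the stretch that encodes the DNA-binding homeodomain, is identical. The longest run shared by the coding sequences of any 2 Hox genes, from the GENCODE vM21 transcripts, was 52 bases. For Hoxa5 and Hoxb5 it was 26 bases. The latter run is shown because it is the longest exact match between the coding sequences of the 2 genes with the highest RPKM. Exon parts outside the coding sequence and inexact matches were not compared.
Hoxa5 and Hoxb5: actcgctaccagaccctggagctgga
Within paralog groups the median shared run over 42 pairs was 17 bases and the longest 47. Of 741 pairs of members, 1 shared a run of 50 bases or more. The read length is not given in the sources used here.

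Other transcripts of the clusters were read in the same way. HoxA holds 21 non-Hox genes of the table, HoxB 9, HoxC 7 and HoxD 10. Hotairm1, an antisense RNA at the 3′ end of HoxA, had 24, 65, 7 and 27 counts (1.07, 2.65, 0.293 and 1.21 CPM). It was highest in T10 and lowest in T8. Hoxaas2, another antisense RNA, had 11, 31, 1 and 4 counts. In HoxD, Haglr, a noncoding RNA that starts beside Hoxd1, had 1, 37, 0 and 0 counts, or 1.51 CPM in T10. All 7 non-Hox genes of HoxC, Hotair among them, had 0 counts, and the 7 miRNA hairpins of the clusters also had none in these polyA libraries.

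Of the genes beside the clusters, the nearest on each side with a mean CPM of 1 or more are given first. Skap2, beyond the 3′ end of HoxA at 143 kb, stood at 45.9, 37.2, 130 and 99.7 CPM, lowest in T10. Hibadh on the other side stood at 70.0 ± 10.1 CPM (SD, n = 4). Next to HoxB, Atp5g1 stood at 12.6 ± 1.86 and Snx11 at 22.1 ± 2.10 CPM. The pair beside HoxC was Calcoco1 (86.9 ± 12.99 CPM) and Smug1 (18.1 ± 1.94), and that beside HoxD was Lnpk (38.1 ± 5.33) and Mtx2 (39.7 ± 3.75). None of these 8 genes was called by the edgeR goodness of fit (adjusted p = 0.235 for Skap2 and 0.999997 for the others). The homeobox genes Evx1 and Evx2, at the posterior ends of HoxA and HoxD, had 30 and 24 counts in T10, 1 and 11 in T14, 4 and 7 in T8, and 0 in TUN, both highest in T10.

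Genes of Hox partner proteins and of regulators of the clusters were read next. All 9 genes of the TALE family, the Pbx, Meis and Pknox homeodomain partners that bind DNA together with Hox proteins, were detected in every tumour. Their sum was 494, 540, 597 and 484 CPM, with Meis2 among the most abundant (98.1 ± 24.6 CPM, SD, n = 4). None of the 9 was called by the goodness of fit in edgeR. Of 22 upstream regulators, 16 entered and 1 was called. That was Aldh1a2, which makes retinoic acid, at 21.9, 24.6, 2.39 and 5.45 CPM (edgeR adjusted p = 0.0373). It was high in T14 as well as T10, unlike the Hox genes of groups 3 to 6. The most abundant regulators were Kat6a (236 ± 16.7 CPM), a histone acetyltransferase, and Ctcf (154 ± 21.6 CPM), which bounds chromatin loops. Cdx1, Cdx2 and Cdx4, which activate trunk Hox genes in the embryo, had at most 2 counts in any library.

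Some marker lists of other cells also had their highest sum in T10 (values again in the order T14, T10, T8, TUN). For most lists the most abundant genes are named, and further names were chosen after their values were seen. Otx2 and Evx1 each stand in 2 of the lists. Choroid plexus genes, 10 in the list, summed to 378, 1344, 344 and 434 CPM, and 7 of the 10 were called by edgeR, all 7 highest in T10. Among these, Otx2 was almost as high in T14 (4.13, 4.19, 0.377 and 0.0447 CPM). Ttr, which carries thyroid hormone in the fluid made by the choroid plexus, stood at 34.0, 579, 36.9 and 3.35 CPM, and Enpp2 at 327, 708, 299.9 and 426. Enpp2, which was not called, made up most of the sum of the list in each tumour. None of the 10 was at 0 in T10. Markers of brainstem and spinal motor neurons summed to 5.55, 37.7, 18.0 and 9.20 CPM, and 2 of the 5 genes that entered of 10 were called, both highest in T10, among them Chat (0.178, 3.62, 1.01 and 0 CPM). Of that list, Mnx1, a marker of spinal motor neurons, had 0 counts in all libraries, and of the most abundant members Prph was highest in T8 (2.62, 8.63, 10.5 and 6.65 CPM) and Slc5a7 in T10 (1.69, 13.1, 4.15 and 1.96 CPM), neither called. Serotonergic neuron markers summed to 8.57, 14.6, 5.24 and 5.58 CPM, led by Tph2 and Gata2, with Lmx1b called of 3 that entered of 6.

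Interneuron markers of brainstem and spinal cord summed to 98.9, 186, 16.6 and 3.75 CPM. All 7 of the 10 that entered were called, 5 highest in T14 and 2 in T10. The glycine transporter gene Slc6a5 stood at 29.4, 161, 14.9 and 2.14 CPM and made up most of the sum in T10. Lhx1 stood at 32.5, 6.84, 0.293 and 0.0447 CPM, and Dbx1 had 0 counts. Cerebellar and precerebellar markers, by contrast, summed to 2248, 410, 107 and 82.8 CPM, and all 7 called, of 9 that entered of 10, were highest in T14. They were led by Cbln3 and Zic1. General neuron markers summed to 3308, 2592, 337 and 318 CPM, led by Snap25 and Gad1, with 9 of 10 called, 7 highest in T14 and 2 in T10. The part of these cells in the Hox signal was not tested.

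**Figure D4:**
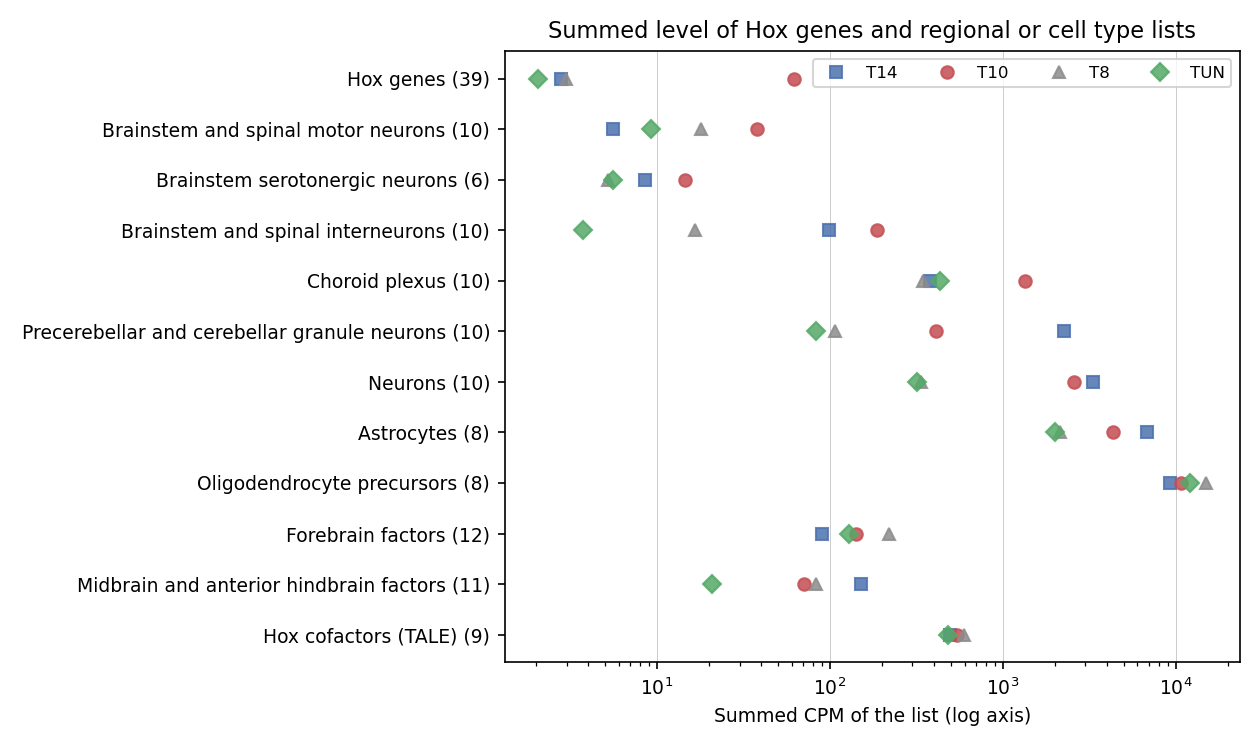
Summed CPM (log axis) of the 39 Hox genes and of 11 gene lists in each tumour, with the number of genes in parentheses. T10 is highest for Hox genes and for choroid plexus, motor neuron, serotonergic and interneuron markers, the interneuron sum there being mostly Slc6a5. T14 is highest for neuron, astrocyte and cerebellar markers. Oligodendrocyte precursor and TALE genes differ less than 2-fold.

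The remaining lists were summed in the same way. Oligodendrocyte precursor markers, all 8 detected in every tumour, summed to 9250, 10730, 15007 and 12115 CPM, led by Olig1 and Ptprz1, with 0 of 8 called. Astrocyte markers summed to 6768, 4307, 2146 and 2003 CPM, led by Slc1a3 and Slc1a2, and 5 of 8 were called, all highest in T14. Forebrain factors, Lhx2 among the most abundant, summed to 89.5, 141, 221 and 129 CPM, with Lhx2 at 74.2 CPM in T10 and 0 called of 6 that entered of 12. Midbrain and anterior hindbrain factors, led by Irx1 and En2, summed to 152, 70.9, 82.7 and 20.8 CPM, and 5 of the 9 that entered of 11 were called, 3 of them highest in T10 (Otx2, Pax2 and Pax8). As given above, Otx2 was almost as high in T14. No gene was called among the markers that entered for ependymal cells (5 of 8 entered), mesenchyme (10 of 10), endothelium (7 of 7), haematopoietic cells (4 of 8), skeletal muscle (1 of 6) and notochord and floor plate (3 of 6). Their summed levels in T10 lay within the range of the other 3 tumours for ependymal, mesenchymal, haematopoietic and skeletal muscle markers, below it for endothelial markers (186 against 223 to 231 CPM) and above it for notochord and floor plate markers (691 against 612 to 672 CPM). Most of the latter sum was Spon1 (403, 423, 440 and 417 CPM) and Ntn1 (203, 263, 177 and 251 CPM). Shh was lower in T10 than in T14 (4.36 against 6.17 CPM). In T10, Foxa1 had 2 counts and T and Foxa2 had 0.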

How the data were processed

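PolyA RNA of 4 tumours was sequenced. The deposited table holds raw read counts for each gene. STAR and featureCounts made it on the mm10 genome, per the submitters' processing notes. Tool versions and strand setting: not given in the sources used here. The gene models are GENCODE vM8. Symbols were found by gene identifier for 46451 of 46946 genes. RPKM used the deposited exon lengths, and 0 columns of sample values were left aside.

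No column name matches 1 sample title, so the columns entered as unnumbered tumours of the group. The labels do not say how the tumours were separated, so p-values measure only the spread between these samples. The members and lists were chosen with earlier results of these data known.

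Counts were scaled by TMM in edgeR 4.0.16 (R 4.3.3). The goodness of fit used glmFit with an intercept at the trended dispersion, chi-square p-values and Benjamini-Hochberg adjustment over 15681 genes. Tested on simulated data of 15373 genes, it recovered 26% of 4-fold, 76% of 8-fold and 96% of 16-fold changes. DESeq2 1.42.0 was an alternative. Intervals are exact Poisson at 95% and cover counting error only. Per-tumour values are given for Hox genes at CPM 1 or more in any tumour and non-Hox genes within the clusters at that level. The nearest gene of mean CPM 1 or more on each side is given per tumour or as mean and SD. The most abundant genes of most lists are named, some without values. Some items are not reported here.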

Additional observations from a re-analysis of the deposited data

Results flagged for a closer look

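In a group of 4, a tumour was marked where its gap to the nearest other value, divided by the whole range, passed Dixon's critical value for 4 samples at 95%. Chance marks about 1 in 20 groups, which is no yardstick for these genes: the 13 Hox genes looked at had to reach CPM 1 in some tumour, and the 11 that passed did so only in the tumour where they are high. T10 was the high tumour for Hoxa5 (0.993), Hoxb5 (0.992), Hoxa4 (0.988), Hoxb6 (0.986), Hoxa3 (0.984), Hoxc5 (0.984), Hoxc4 (0.981), Hoxb4 (0.958), Hoxb3 (0.955) and Hoxb2 (0.916). T8 was the high tumour for Hoxb13 (0.956). The genes are not independent of each other, since the same tumour marks 10 of them. The summed CPM passed in T10 for HoxC (0.991), HoxB (0.952), HoxD (0.951), HoxA (0.941) and all 39 genes (0.985). Apart from that of HoxD, these sums hold genes named above, so they are not separate evidence. The noncoding gene Haglr of HoxD also passed in T10 (0.971). It reached CPM 1 only there, so its mark supports nothing by itself either.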

How the results depend on the processing

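Of 103 alternative values for 27 results, 71 kept to the limits set and 32 moved. No paired analysis was possible because all tumours belong to 1 group. The goodness of fit called 755 genes with edgeR, 485 to 552 with 1 tumour left out, and 102 as DESeq2 dispersion outliers. For Hox genes it called 9, against 0 with edgeR's default filter (0 entered), 14 with a total of 10 or more counts, 0 as DESeq2 outliers, and 0 to 9 with 1 tumour left out, 0 being without T10. Hox genes detected in T14 went from 1 to 2 at CPM 0.5 and to 0 at CPM 2 and at RPKM 1. In T10 they went from 12 to 6 at RPKM 1. In T8 they went from 1 to 2 at CPM 0.5 and to 0 at CPM 2, at RPKM 1 and with library totals, and in TUN from 0 to 1 at CPM 0.5. Without Hox genes that overlap another gene, the sums went from 61.7 to 28.9 CPM in T10, from 2.80 to 0.311 in T14, from 2.97 to 1.68 in T8 and from 2.05 to 0.447 in TUN, and the share of T10 to 98.0% in HoxA, 82.9% in HoxB and 74.1% in HoxD. In T10, with more than 3 counts, the highest detected group went from 5 to 7 in HoxA, from 6 to 8 in HoxB (also 8 at CPM 0.5) and from 5 to 6 in HoxC. Genes high in 1 tumour alone numbered 501, 336, 86 and 101 in T14, T10, T8 and TUN at 2 times the next tumour and 33, 36, 7 and 5 at 8 times, where the Hox gene of T8 was lost (0). The causes of these moves were not tested. Depth limits every member at 3 counts or fewer.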

Other observations

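Among 10711 non-Hox genes at CPM 10 or more in T10, the 10 with the largest share of their 4-tumour CPM in that tumour were Car9 (96.7%), Ttr (88.6%), Glra1 (88.4%), Kl (87.4%), Lamp5 (84.1%), Htr2c (82.5%), Cbln2 (82.4%), Gabra5 (81.4%), Thsd7b (78.2%) and Slc6a5 (77.6%). Hoxb5 (98.4%) and Hoxa5 (97.9%) had larger shares than any of them. T10 was chosen for its summed Hox CPM, the highest of the tumours, and both genes reached CPM 10 only there. Their shares in T10 had to be high and support nothing by themselves. Car9, a carbonic anhydrase induced by low oxygen, stood at 2.57, 147, 1.42 and 0.982 CPM (T14, T10, T8, TUN). Glra1, a glycine receptor subunit of brainstem and spinal cord, stood at 1.55, 16.04, 0.503 and 0.0447 CPM. The likeness rests on 4 tumours and on 1 of them being high.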
